A study of Homo sapiens with 6 samples.

Results

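Of the 1546 annotated genomic copies of SVA_D in the deposited count tables, 242 (15.7%) had at least 1 raw count in each of the 3 libraries made from cells without a guide RNA, and these copies are described here. The choice rests on the no-guide counts themselves, so the levels of these copies without the guide are a description and not a finding. As a control for that choice, the 304 copies with at least 1 count in each of the 3 guide libraries were treated in the same way, and 167 copies met both conditions. Of the 9495 counts that all SVA_D copies had in the no-guide libraries, the 242 copies held 8078 (85.1%), and of the 10972 in the guide libraries they held 7884 (71.9%).

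The series measured total RNA from HEK 293T cells, a transformed line of human embryonic kidney cells, in 6 libraries. The 3 no-guide libraries came from cells that the labels call WT and that had received dCas9-VP64 and rtTA by transfection. The 3 guide libraries came from cells labelled CRISPRa that had received dCas9-VP64, rtTA and an SVAD sgRNA. Both groups therefore carried the activator, and every sample title also names SunTag. dCas9-VP64 is a Cas9 protein that binds DNA without cutting it, joined to a transcription activator, and rtTA is the doxycycline-dependent transactivator used to switch on transgenes. The control is a group with no guide at all, not one with a guide that has no target. Nothing in the labels says whether replicates came from separate cultures, so the spread behind each p-value may be technical only. In bulk RNA, fewer cells that transcribe a copy and less RNA per cell cannot be told apart.

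SVA elements are composite retrotransposons found in apes and humans. A full copy starts with a run of hexamer repeats, followed by an Alu-like stretch, a GC-rich tandem repeat region and a stretch derived from an endogenous retrovirus that ends in a polyadenylation signal and a poly(A) tail. They have no proteins of their own and are mobilized by those of LINE-1. Most copies are kept silent by KRAB zinc finger proteins such as ZNF91, which recruit TRIM28 and SETDB1. Reads can reach a copy in several ways, as transcripts that start in the copy, as exons of genes that have taken up a piece of it, or as intronic RNA of the gene around it.

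SVA_D copies are similar in sequence, and a read pair with several alignments was counted once at every one of them, per the file headers. A count at one copy can thus come from a similar copy. The counting also ignored strand, so the orientation of a copy is that of the annotation and does not say which strand was read. The libraries held 16557854 to 22651168 protein-coding gene counts but only 2608 to 4553 SVA_D counts, spread over 462 to 706 copies. Levels are in CPM, counts per 1000000 on gene library sizes scaled by TMM, and 3 counts corresponded to 0.128 to 0.187 CPM. The alignment names in the file headers follow another scheme for replicate 3 of both groups, and these libraries stood apart from replicates 1 and 2. With the group in the model, edgeR called 28.2% of 13385 genes higher and 25.8% lower in replicate 3. Of 7 genes that mark HEK293 cells all were detected well enough to be tested and 0 differed with the guide (edgeR). Of 8 markers of blood, endothelium, liver and fibroblasts 1 was tested, COL1A1, and the 8 summed to 3.05 to 16.2 CPM without the guide and 2.94 to 17.9 CPM with it. COL1A1 was at 1.81, 2.995 and 14.8 CPM in no-guide replicates 1, 2 and 3 and 2.35, 3.42 and 16.5 CPM in the guide replicates. The highest value among the other markers was 1.015 CPM, for APOA1 in guide replicate 3. PTPRC, CD3E and CDH5 were at 0 in all 3 guide libraries and reached 0.122, 0.0428 and 0.143 CPM without the guide.

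Counts among the 242 copies were very uneven. The 2 highest copies took up 14.2% of all SVA_D counts of the no-guide libraries, the 10 highest 36.5% and the 50 highest 63.4%. At the other end, 105 copies were in the set with a lowest library of 1 count, and 14 of these had exactly 1 count in each library. Of the 10 highest copies, 7 overlapped an annotated exon on their own strand and 6 lay in a protein-coding gene.

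**Figure D1:**
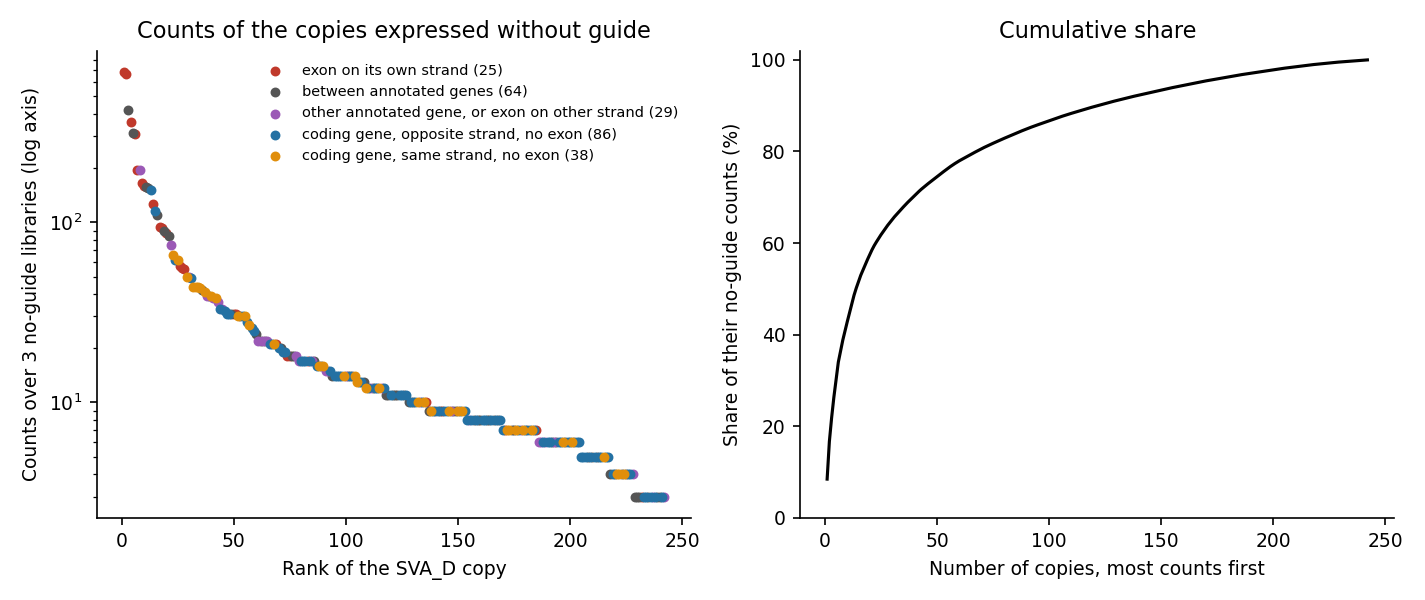
Left, counts summed over the 3 no-guide libraries (log axis) for each of the 242 copies in order of rank, coloured by annotated place with the number of copies in brackets. Right, the cumulative share of these copies' counts in percent. The 10 highest copies reach 42.9% of the 8078 counts, and 7 of them overlap an exon on their own strand.

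The copy with the most counts was SVA_D_dup1229 (chr17:30522805-30524227, plus strand). All of its 1423 bases lie in the annotated 3′ UTR of GOSR1, which encodes a Golgi SNARE protein, and the annotated transcript ends within the copy. It had 226, 176 and 281 raw counts in no-guide replicates 1, 2 and 3 and 264, 176 and 196 in guide replicates 1, 2 and 3. These are 10.8, 10.8 and 12.02 CPM without the guide and 12.9, 10.9 and 8.65 CPM with it. The groups overlapped, with the highest and the lowest value both in the guide group, and the log2 fold change of guide over no guide was -0.05 ± 0.16 (SE).

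SVA_D_dup1360 (chr19:58404233-58406386, minus strand) came second. It lies in the zinc finger gene ZNF584 but opposite to it, and 2149 of its 2154 bases form an exon of the long non-coding RNA AC012313.1, 1 transcript of which also starts within the copy. Its levels were 10.2, 10.7 and 11.7 CPM without the guide and 10.6, 9.33 and 9.09 CPM with it, and the log2 fold change was -0.17 ± 0.14 (SE). The groups overlapped through guide replicate 1. ZNF584 itself was at 38.0 ± 0.638 CPM without the guide and 38.4 ± 3.96 CPM with it (SD, n = 3).

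SVA_D_dup1378 (chr20:30405283-30406523) and SVA_D_dup1377 (chr20:30404192-30405254), also among the 5 highest copies, are adjacent pieces on the plus strand, outside any annotated gene. The nearest protein-coding start site, that of the defensin gene DEFB115, is 851141 bases away. SVA_D_dup1378 was at 7.34, 7.27 and 6.20 CPM without the guide and 6.02, 6.78 and 6.05 CPM with it. SVA_D_dup1377 was at 4.38, 4.89 and 6.07 CPM without the guide and 6.75, 4.85 and 6.13 CPM with it. Between them they held more counts than either of the first 2 copies. Their log2 fold changes had opposite signs, -0.14 ± 0.18 and 0.21 ± 0.22 (SE), and the groups overlapped for each.

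Of the other copies of the first 10, 4 also form part of a 3′ UTR. SVA_D_dup217 (chr2:169505004-169506468) lies whole in the 3′ UTR of BBS5, a subunit of the BBSome, which carries cargo in cilia, and was at 5.84 ± 1.10 CPM without the guide and 6.22 ± 1.27 CPM with it (SD, n = 3). SVA_D_dup494 (chr5:179834413-179835696) supplies 564 bases of the 3′ UTR of MRNIP, a DNA repair factor, and overlaps the autophagy receptor gene SQSTM1 on the other strand. It was at 6.86, 6.78 and 2.27 CPM without the guide and 5.09, 6.22 and 3.35 CPM with it, so replicate 3 was lowest in both groups.

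SVA_D_dup92 (chr1:161422259-161424316) gives the last 166 bases of an exon of the non-coding RNA AL592295.4. It was at 1.91, 2.69 and 4.75 CPM without the guide and 2.98, 2.12 and 6.53 CPM with it, highest in replicate 3 of both groups. SVA_D_dup697 (chr9:33600251-33601837) lies in the cytochrome P450 pseudogene CYP4F26P without touching an exon. It was at 4.43, 4.65 and 1.07 CPM without the guide and 1.71, 5.23 and 1.76 CPM with it.

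SVA_D_dup913 (chr11:74128568-74130129) overlaps the 3′ UTR and coding sequence of transcripts of C2CD3, a centriole protein. It was at 2.81, 2.93 and 2.52 CPM without the guide and 2.15, 2.43 and 1.90 CPM with it, and it is the only one of the 10 whose groups did not overlap. SVA_D_dup1227 (chr17:28603477-28605306), in the 3′ UTR of AC005726.1, a gene the deposited table lists as ENSG00000258472, was at 2.63 ± 0.650 CPM without the guide and 2.04 ± 1.04 CPM with it (SD, n = 3). None of these 10 copies was called by edgeR, with adjusted p-values from 0.866 to 0.976 over all 63 copies tested. Their sum was 57.1 ± 1.05 CPM without the guide and 54.8 ± 0.783 CPM with it (SD, n = 3).

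**Figure D2:**
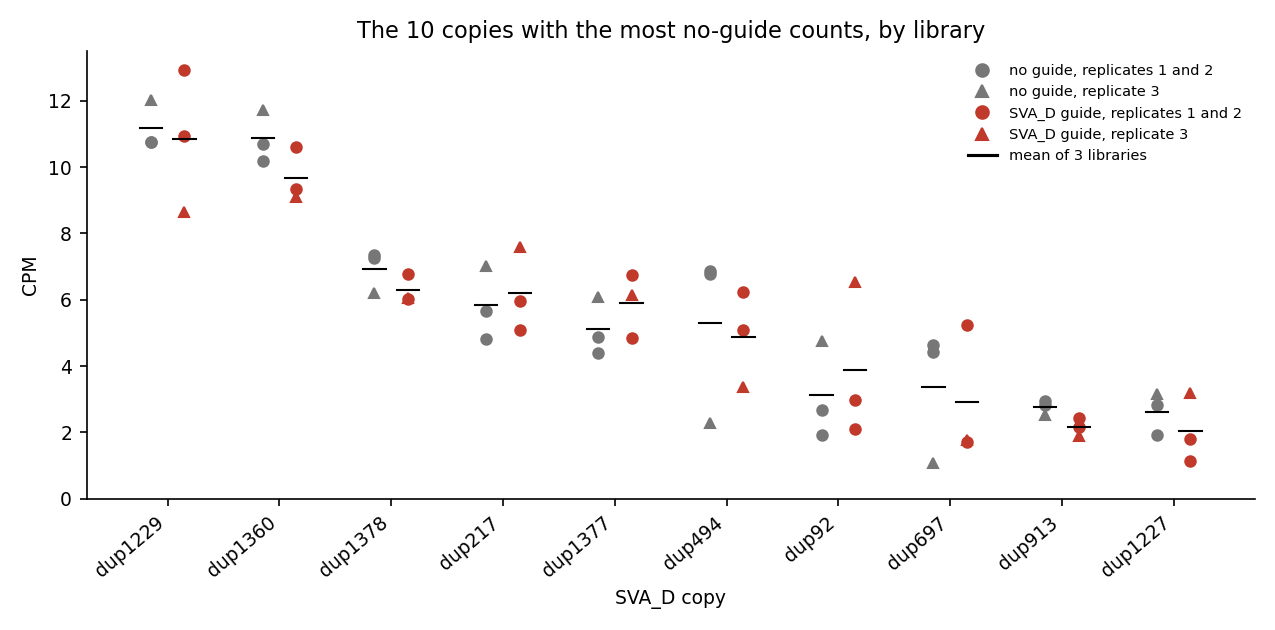
Level in CPM of the 10 copies with the most no-guide counts, 1 point per library, grey without the guide and red with it, triangles for replicate 3 and bars for the mean of 3 libraries. The groups overlap for each copy except dup913, and replicate 3 is the lowest of both groups for dup494 and the highest of both for dup92.

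By annotated place, 143 of the 242 copies (59.1%) lay in a protein-coding gene, against 46.8% of the 1454 copies on chromosomes 1 to 22, X and Y. Of the 140 with a single orientation to their host genes, 46 (32.9%) ran in the direction of the gene and 94 against it, where 26.6% of all such copies ran with the gene. Most copies were antisense to their host in both sets. In the control choice, 163 of the 304 copies (53.6%) lay in a protein-coding gene. Of its 160 copies with a single orientation, 29.4% ran with the gene. The 92 copies on alternative or unplaced sequences had no counts in any library.

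Exon overlap was also more common. An exon on the copy's own strand was overlapped by 25 of the 242 (10.3%), against 48 of all 1454 copies (3.30%) and 19 of the 1075 in neither choice (1.77%). The annotated transcript ended within the copy for 18 of them, out of 25 such copies in all, while it started within the copy on that strand for 4 of 18. A protein-coding start site lay within 5 kb of 32 copies (13.2%), against 8.25% of all copies. The median length was 1609 bases, against 1461 for all copies and 1345 for those in neither choice. The control choice had similar values, with 25 of 304 copies (8.22%) overlapping an exon on their own strand. In it 45 copies (14.8%) lay within 5 kb of a start site, and the median length was 1630 bases. These traits are thus not particular to the copies chosen without the guide. No test was made of these shares, since copies share reads and were chosen by their counts.

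The 25 copies that overlap an exon on their own strand held 40.6% of the counts of the 242, at 54.0 ± 1.44 CPM without the guide and 52.4 ± 2.82 CPM with it (SD, n = 3). Within them, 6 copies in 3′ UTRs made up 29.7 ± 0.163 CPM without the guide (29.6 to 29.9) and 27.9 ± 0.932 CPM with it (27.01 to 28.9), so that the groups did not overlap, although none of the 6 was called by edgeR. The largest of the 6 was SVA_D_dup1229, at 11.2 CPM without the guide and 10.8 CPM with it. The 14 copies in exons of non-coding genes were at 21.4 ± 1.98 and 21.3 ± 2.49 CPM, with overlap. SVA_D_dup1360 was the largest of the 14, at 10.9 CPM without the guide and 9.68 CPM with it. Smaller ones are SVA_D_dup876 in TMEM9B-AS1, SVA_D_dup1186 in the pseudogene SMG1P7 and SVA_D_dup431 in NNT-AS1. A single copy, SVA_D_dup58 in the leptin receptor gene LEPR (chr1:65630189-65630430), lay mainly in coding sequence. It had 14, 6 and 1 counts without the guide and 0, 1 and 3 with it.

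Outside exons, the 86 copies opposite to a protein-coding gene were at 21.9 ± 2.69 CPM without the guide and 21.5 ± 1.92 CPM with it, and the 38 in the direction of the gene at 13.2 ± 1.02 and 12.6 ± 2.40 CPM (SD, n = 3). The 64 copies between annotated genes were at 32.3 ± 1.72 CPM without the guide and 35.3 ± 3.75 CPM with it. The 24 copies in other annotated genes only were at 10.3 ± 1.75 and 10.03 ± 3.13 CPM. In these 4 places the ranges of the 2 groups overlapped. The 5 remaining copies overlapped an exon on the other strand only and summed to 1.74 ± 0.137 and 1.54 ± 0.455 CPM.

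The genes that hold these copies had higher levels per length than other genes that hold SVA_D. The 150 protein-coding genes that overlap at least 1 of the 242 copies had a median level of 0.380 CPM per kb of gene body without the guide. The median was 0.118 CPM per kb for the 472 genes that hold only other SVA_D copies and 0.142 for all 19986 genes. These groups also differed in median gene length, at 69.2, 133.4 and 27.15 kb in the same order, and a level per kb depends on length. Without division by length the medians were 40.2, 21.2 and 6.72 CPM. Gene counts covered introns as well as exons, so uniquely aligned pairs of a copy count for its host too, and a high intron level in a gene and counts in its copy are not separate measurements.

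For the 132 copies in a single protein-coding gene the copy's level per kb was set against that of the gene. Where the copy overlapped an exon on its own strand, of the host or of another gene there, the copy was above its host in 10 of 13 cases, with a median ratio of 3.40. Without an exon the median ratio was 0.497 for 35 copies in the gene's direction and 0.171 for 80 copies against it, and 14 copies of each kind were above their host. The highest ratios were 53.2 in the gene's direction and 43.3 against it. With unstranded counts, pairs from a host intron fall on copies of either orientation.

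**Figure D3:**
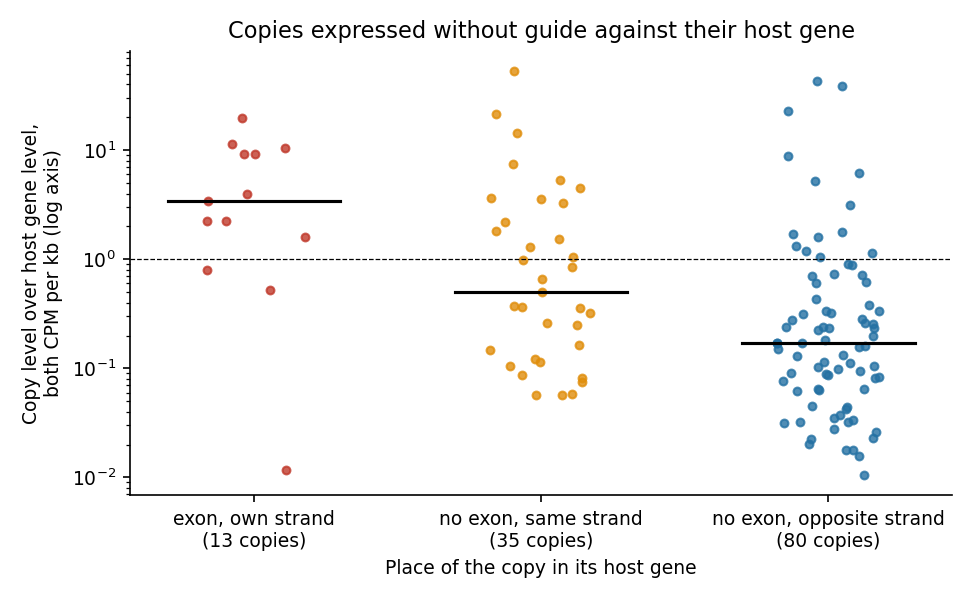
Ratio of the copy's level to its host gene's level without the guide, both in CPM per kb (log axis), for copies in a single protein-coding gene, with bars at the medians and a dashed line at 1. The medians are 3.40 for copies in exons on their own strand, 0.497 for copies in the gene's direction outside exons and 0.171 for copies against it. The host's level is over the whole gene body, introns included, so a copy in an exon tends to lie above it.

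The summed level of the 242 copies differed between the groups by less than the spread between libraries. It was 132.6, 137.0 and 130.6 CPM in no-guide replicates 1, 2 and 3 and 125.0, 137.1 and 137.9 CPM in the guide replicates, means of 133.4 ± 3.27 and 133.3 ± 7.23 CPM (SD, n = 3). The ratio of the means was 0.9995, and the log2 ratio was -0.04 in replicates 1 and 2 and 0.08 in replicate 3. All SVA_D copies together were at 156.7 ± 2.62 CPM without the guide and 184.8 ± 16.1 CPM with it, a difference of 28.2 CPM, to which the 242 copies gave -0.0720 CPM.

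The copies were chosen on the no-guide counts that enter this sum, so the control choice is given beside it. The 304 copies chosen on the guide libraries were at 131.8 ± 1.70 CPM without the guide and 156.3 ± 8.26 CPM with it (SD, n = 3), a ratio of 1.19, with log2 ratios of 0.21 in replicates 1 and 2 and 0.32 in replicate 3. The 167 copies in both choices, which have a count in all 6 libraries, were at 124.1 ± 2.13 and 128.0 ± 5.55 CPM, a ratio of 1.03. The 75 chosen without the guide only were at 9.31 ± 1.17 CPM without and 5.37 ± 1.69 CPM with it, and the 137 chosen with the guide only at 7.64 ± 0.980 and 28.4 ± 3.41 CPM. The last 2 differences, -3.94 and 20.7 CPM, have the sign that the choice gives them. They come from sets of 75 and 137 copies defined by the counts compared, so their sizes are a description only. The 1167 copies in neither choice were at 15.6 ± 1.11 and 23.1 ± 6.78 CPM.

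**Figure D4:**
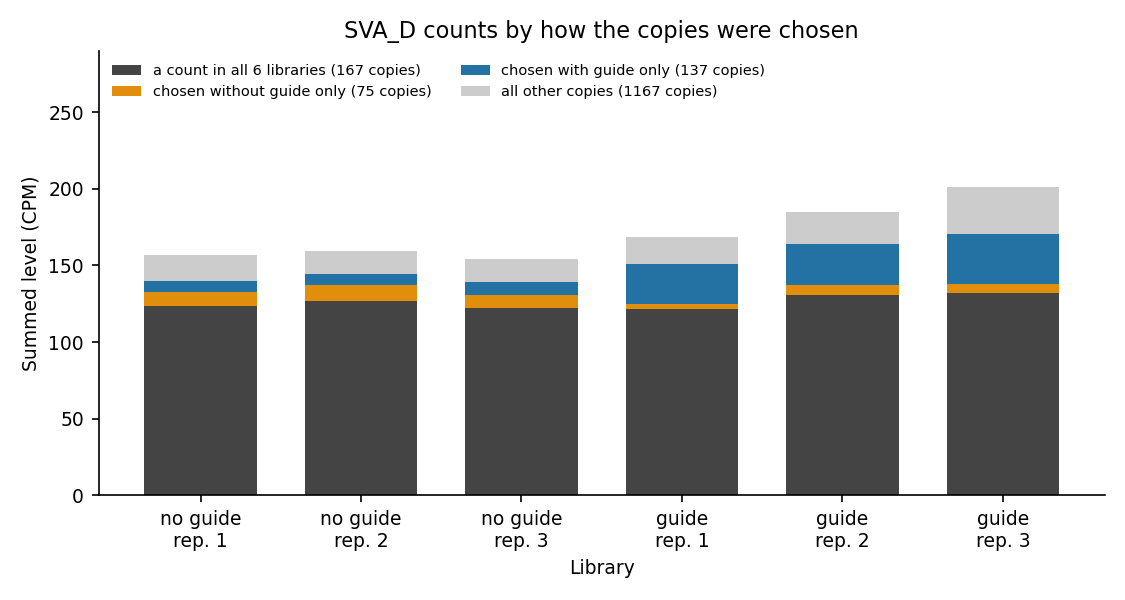
Summed level in CPM of all SVA_D copies in each of the 6 libraries, stacked by how the copies were chosen. The 167 copies with a count in all 6 libraries lie between 121.6 and 131.7 CPM in every library. The copies chosen with the guide only lie at 26.0 to 32.3 CPM with the guide and 7.01 to 8.77 CPM without it. The choice on guide counts gives this difference its direction.

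Choosing copies on 2 no-guide libraries and comparing them in the libraries of the remaining replicate number takes the compared no-guide library out of the choice. For replicate 1 this gave 308 copies at 132.6 CPM in the no-guide library and 131.5 CPM in the guide library, a ratio of 0.991. For replicate 2 it gave 324 copies and a ratio of 1.06, and for replicate 3 it gave 302 copies and a ratio of 1.11. The same held-out comparison of copies chosen on 2 guide libraries gave 1.08, 1.14 and 1.22. In every replicate number the ratio of copies chosen with the guide was above that of copies chosen without it. Each choice still used 2 libraries of its own group, so copies that differ between the groups enter on the side where they are higher. The choice thus favours this order, and nothing is read from it.

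Copy by copy, 55 of the 242 had enough counts to be tested, all of them in the control choice as well, and 3 were called higher and 0 lower with the guide (edgeR, Benjamini-Hochberg over 63 tested copies). Over all tested copies 17.5% were called higher (11 of 63) and 0% lower. Without adjustment, 11 of the 63 were higher and 1 lower at a p under 0.05. DESeq2, which gave 628 copies an adjusted p, called 1.43% of them higher and 0 lower, with 1 lower without adjustment, and among the 242 copies it called 3 higher and 0 lower. The 3 called copies, like the 8 tested copies outside the 242, owed their place in the test to their guide counts, so the filtered counts follow from how copies enter the test and nothing is read from them. Without the count filter all 242 copies were fitted and the same 3 were called (edgeR over 1060 copies, of which 1.13% were called higher and 0% lower). Over the 242 copies the mean was higher with the guide for 115 and lower for 127. The median log2 fold change of the 55 tested was -0.05, and that of all 63 was 0.03.

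The 3 called copies were all near the lower limit of the choice, with 8 to 11 counts over the 3 no-guide libraries. They passed the count filter through their guide counts, so for each the adjusted p without the filter is given as well. SVA_D_dup685 (chr8:141201549-141203194, minus strand), between genes, had 2, 2 and 4 counts without the guide and 39, 20 and 23 with it. It rose from 0.130 ± 0.0384 to 1.39 ± 0.464 CPM (SD, n = 3). On the log2 scale this was 3.34 ± 0.53 (SE; edgeR adjusted p = 0.00109, or 3.00e-05 without the filter). The nearest start site is that of DENND3, an activator of Rab GTPases, 84271 bases away. That gene had a log2 fold change of 0.39 ± 0.18 (SE) and was not called by edgeR.

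SVA_D_dup1216 (chr17:17911652-17913237, minus strand) lies in the direction of its host TOM1L2, which encodes an endosomal sorting adaptor, and touches no exon. It had 3, 1 and 5 counts without the guide and 23, 14 and 22 with it, a log2 fold change of 2.71 ± 0.52 (SE; edgeR adjusted p = 0.00329, or 0.00541 without the filter). TOM1L2 was at 31.7 ± 0.636 CPM without the guide and 34.5 ± 5.09 CPM with it (SD, n = 3) and was not called. SVA_D_dup377 (chr4:76916101-76917314, plus strand), 17954 bases from the start of SOWAHB, had 6, 1 and 4 counts without the guide and 16, 15 and 63 with it, a log2 fold change of 3.04 ± 0.68 (SE; edgeR adjusted p = 0.00889, or 4.82e-05 without the filter). Most of its guide counts came from replicate 3, and without that library the adjusted p was 0.0573 (edgeR), with a log2 fold change of 2.22. In replicates 1 and 2 alone the other 2 were called and SVA_D_dup377 was not (edgeR adjusted p = 0.0630).

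By overlap of raw levels alone, all 3 guide libraries were above all 3 no-guide libraries for 12 of the 242 copies and below for 14. Over the 1060 copies with a count in any library, 6.79% were above in this way and 1.32% below. In the control choice 72 copies were above and 3 below. A copy with a 0 in a no-guide library cannot lie below without overlap, so the choice fixes that all 14 are among the 242.

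Among tested copies the lowest log2 fold change was that of SVA_D_dup663 (chr8:65662055-65663547), in the direction of MTFR1, a mitochondrial fission regulator. It had 13, 10 and 20 counts without the guide and 7, 4 and 6 with it, a log2 fold change of -1.27 ± 0.46 (SE; edgeR adjusted p = 0.0924), and did not pass. SVA_D_dup964, SVA_D_dup854, SVA_D_dup876 and SVA_D_dup800 followed at -0.65, -0.61, -0.55 and -0.53, each with overlapping groups. On the upper side, SVA_D_dup429, in an exon of the non-coding RNA AC114956.2, had 1.05 ± 0.48 and SVA_D_dup1438 0.77 ± 0.71 (SE), and neither passed.

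**Figure D5:**
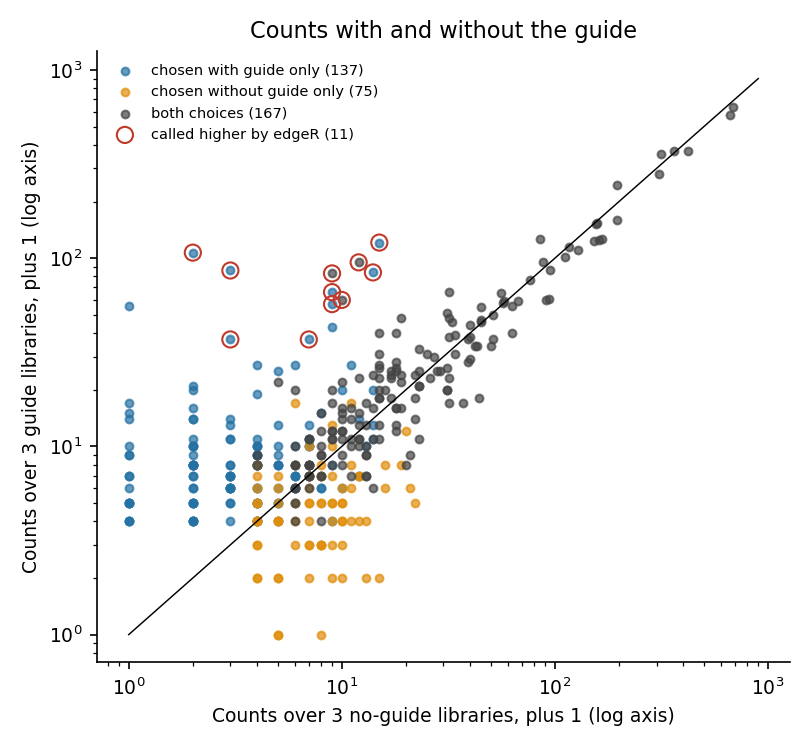
Counts summed over the 3 guide libraries against counts summed over the 3 no-guide libraries, each plus 1 (log axes), for copies in either choice, coloured by choice, with copies called higher by edgeR circled and a line of equal counts. Copies with many counts lie along the line, and the 11 circled copies have 1 to 14 counts without the guide, 3 of them among the 242.

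The edge of the choice was not a gap. The 208 copies just outside, with a count in 2 of the 3 no-guide libraries, had 2 to 14 counts in sum without the guide. Their highest was SVA_D_dup149, with 4, 0 and 10 counts without the guide and 26, 23 and 71 with it. The 105 copies just inside had 3 to 22 counts in sum. Calls on either side of the edge are not compared, since copies this low enter the filtered test only through their guide counts. A further 367 copies had a count in a single no-guide library, among them the called SVA_D_dup856, opposite to UBTD1, with 0, 0 and 1 counts without the guide and 43, 16 and 47 with it. Of the 729 copies with none, 243 had counts with the guide, led by SVA_D_dup1334 with 20, 7 and 28.

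Host genes were tested over the whole gene table. The choice did not use the gene counts, but uniquely aligned pairs of a copy can enter those of its host, so the 2 are not fully separate. Of the 150 genes that hold one of the 242 copies 130 were tested, and 0 were called higher or lower (edgeR), as were 0% of all 13028 tested genes in either direction. DESeq2 and edgeR with replicate 3 as a covariate also called 0. Without adjustment, 1 of the 130 was higher and 0 lower at a p under 0.05 (edgeR), against 19 and 4 over all genes. Their median log2 fold change was -0.03, against -0.03 for 386 tested genes that hold only other copies and 0.00 for all genes. The 1 gene was the olfactory receptor gene OR6J1, at 0.572 ± 0.0618 CPM without the guide and 1.58 ± 0.907 CPM with it (SD, n = 3), named here after its value was seen. It holds SVA_D_dup1056 on the opposite strand, which had 5, 6 and 6 counts without the guide and 14, 7 and 18 with it. Uniquely aligned pairs of this copy can count for OR6J1 too, so copy and gene are not separate measurements here.

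Hosts of the highest copies were not called, and most lay close to 0 in the same fit. The log2 fold change was -0.07 ± 0.15 for GOSR1, 0.01 ± 0.12 for ZNF584, -0.02 ± 0.14 for C2CD3, 0.11 ± 0.15 for MRNIP and 0.03 ± 0.12 for SQSTM1 (SE). ENSG00000258472, the host of SVA_D_dup1227, was lowest at -0.23 ± 0.21 (SE). BBS5 was listed at 0 in every library of the gene table, although its 3′ UTR copy SVA_D_dup217 had 79 to 172 counts per library. The read-through gene ENSG00000251569 covers the whole of BBS5 on the same strand, and pairs that overlap 2 genes were not assigned. MTFR1, the host of SVA_D_dup663, was at 69.8 ± 3.90 CPM without the guide and 65.6 ± 4.23 CPM with it (SD, n = 3), or -0.09 ± 0.11 on the log2 scale (SE).

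Genes of the machinery that silences SVA elements were detected throughout. All 16 listed genes were tested and 0 were called in either direction (edgeR), with 4 above 0 and a median log2 fold change of -0.02. ZNF91, which binds SVA elements, stood at 7.31 ± 2.04 CPM in the no-guide libraries and 6.67 ± 0.774 CPM in the guide libraries, and ZNF611, another SVA-binding zinc finger protein, at 10.3 ± 1.35 and 10.3 ± 3.82 CPM (SD, n = 3). The co-repressor TRIM28 was at 480 ± 112 and 500.3 ± 80.5 CPM and the histone H3 lysine 9 methyltransferase SETDB1 at 57.1 ± 11.5 and 56.7 ± 13.9 CPM.

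Replicate 3 was then compared with replicates 1 and 2. With the group in the model, edgeR tested 71 of the 242 copies and called 5 higher and 8 lower in replicate 3, while 7.41% of all 81 copies tested were called higher and 9.88% lower. The median absolute log2 difference was 0.50 for replicate 3 over these 71 copies and 0.23 for the guide over the 55 copies tested for it. These 2 medians come from different copies, count filters and group sizes, so they cannot be ranked. Copies with few counts could enter the replicate 3 test through the replicate set where they were higher, so nothing is read from the number called. The largest rise was 1.87 ± 0.48 in SVA_D_dup1438 and the largest drop -2.14 ± 0.75 in SVA_D_dup632 (SE). Among the 10 highest copies, SVA_D_dup92 (1.21 ± 0.23) and SVA_D_dup1227 (0.78 ± 0.29) were higher and SVA_D_dup697 (-1.47 ± 0.28) and SVA_D_dup494 (-1.15 ± 0.21) lower in replicate 3 (SE). This comparison was chosen after earlier results had shown that replicate 3 stood apart. What made those libraries differ was not tested.

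Where a copy and its single host gene were both tested, their differences in replicate 3 had the same sign in 24 of 35 cases, with Pearson's r of 0.448 and Spearman's rho of 0.531 across copies. Under the guide the signs were the same in 16 of 26 cases, with r of 0.400 and rho of 0.281. These are descriptions across copies, which are not independent replicates, and uniquely aligned pairs of a copy enter both values. Within the hosts of the highest copies, GOSR1 had a log2 difference of -0.28 in replicate 3 (edgeR adjusted p = 0.0184), and its copy SVA_D_dup1229 one of -0.14.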

How the data were processed

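Per the file headers, the deposited values are raw counts from featureCounts 2.0.0. Genes were counted without strand as read pairs over whole bodies of the Ensembl protein-coding genes, unique alignments only, and SVA_D copies likewise without strand but with every alignment of a multi-mapping pair. Per the submitters' processing notes, FastQC 0.11.8, STAR 2.7.0e and the builds GRCh38 and hg38 were also used. Coordinates are those of the deposited tables. Host genes are the deposited genes that overlap a copy, and GENCODE release 29 (GRCh38) gave exons, transcript ends and genes that code for no protein, where 12495 of 19948 shared genes had the same start and end.

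The members, the lists of genes and the comparisons were chosen with earlier results of these data known. Tests used edgeR 4.0.16 in R 4.3.3 (quasi-likelihood, filterByExpr with a minimum of 10) with gene-table library sizes and TMM for all tables, Benjamini-Hochberg adjustment over the whole table and a threshold of 0.05. DESeq2 1.42.0 was an alternative, and the edgeR fit of guide against no guide was tested on simulated gene and copy counts. Sums over copies got no test. Ratios per kb used the annotated lengths. Totals of 2608 to 4553 SVA_D counts per library limit the precision, and floors of 3 counts cover counting error only.

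Named copies were the 10 with the most no-guide counts, every called one, the 5 highest and 5 lowest log2 fold changes, the 10 copies outside the set with the most guide counts and those called in the control choice. Of the last 2 kinds only the copies at the edge of the choice are described. Host genes or nearest genes of named copies were looked up, and ZNF91, ZNF611, TRIM28 and SETDB1 were always named. The sequences of copies and 1 listed marker gene are not reported here. Same-numbered libraries of the 2 groups deviated together from their group means over genes (r = 0.511, 0.598 and 0.841 for numbers 1, 2 and 3), so the numbers were taken as pairs. Different numbers within 1 and 2 correlated as well, at 0.601 and 0.568, so this pairing rests mainly on replicate 3. Alternatives were another tool, scaling, count filter, block, batch and membership rule, and leaving out each library.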

Additional observations from a re-analysis of the deposited data

Results flagged for a closer look

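For 4 named copies every guide library of one set of replicates lay on one side of the same-numbered no-guide library and replicate 3 on the other, and these differences between replicate sets were not tested. SVA_D_dup1229 in the 3′ UTR of GOSR1 had a log2 ratio of guide over no guide of 0.149 in replicates 1 and 2 and -0.475 in replicate 3. SVA_D_dup494 at MRNIP went the other way, with -0.271 and 0.565. SVA_D_dup1227 had -0.687 in replicates 1 and 2 and 0.00511 in replicate 3, and SVA_D_dup964, in a gene body without touching an exon, -1.18 and 0.0446. In the last 2 the value of replicate 3 is close to 0.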

How the results depend on the processing

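The 242 copies held 2 or 3 called higher and 0 lower under each of 14 alternatives. The share called higher over all tested copies was 17.5% in the main edgeR fit, 1.43% with DESeq2 and 1.13% in edgeR without the count filter. With the filter these numbers follow from how copies enter the test, so nothing is read from their steadiness. Over all tested copies, and in the control choice, 11 were called higher, 8 to 12 under other settings and 6 to 13 with 1 library left out, where the 6 came without guide replicate 3. The replicate block also gave 11 and 0, and 3 and 0 among the 242, and pairing changed no call. No alternative called a host gene. The log2 ratio of the summed level was -0.00078 for the 242 copies. It was 0.092 with a count required in 2 of 3 libraries, 0.147 when replicate 3 was held out of the choice, 0.178 for the same number of copies with the most counts over all 6 libraries and -0.123 with TMM from the copy table. For the control choice, at 0.247, it was 0.044 with a count required in all 6 libraries, 0.116 with replicate 1 held out, 0.124 with TMM from the copy table, 0.397 outside exons and, added after seeing the data, 0.129 without the called copies. With 1 library left out, log2 fold changes changed sign for SVA_D_dup1229 (-0.196 to 0.094), SVA_D_dup1438 (-0.278 to 1.61), SVA_D_dup217 (-0.083 to 0.243), SVA_D_dup494 (-0.487 to 0.113), SVA_D_dup697 (-0.959 to 0.064) and SVA_D_dup92 (-0.289 to 0.769), none of them called. SVA_D_dup1229 was also at 0.151 in replicates 1 and 2 alone, and SVA_D_dup217 at -0.048 with TMM from the copy table. The cause of these shifts was not tested. Most of the 242 copies have too few counts for a test.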

Other observations

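The 14 copies that lay below their no-guide range in all 3 guide libraries had 4 to 166 counts in sum without the guide. Another 12 of the 242 lay above. Over the 1060 copies with a count, 1.32% lay below and 6.79% above. Of the 14, 11 were chosen without the guide only, where the choice favours a drop. The single copies that follow are thus a description, and no fall is read from them. SVA_D_dup90, opposite to the chaperonin subunit gene CCT3, had 6, 3 and 5 counts without the guide and 1, 0 and 0 with it. SVA_D_dup1307, a fragment of 112 bases at an exon of the complex I subunit gene NDUFA13 on the other strand, had 4, 3 and 5 counts and 1, 0 and 0. SVA_D_dup633 (chr7:149554531-149555841), between genes, had 10, 9 and 17 and 8, 7 and 1. It overlaps SVA_D_dup632 (chr7:149553502-149554875), which went the other way in replicates 1 and 2, with 9, 2 and 3 counts without the guide and 22, 14 and 3 with it. SVA_D_dup90, SVA_D_dup1307 and SVA_D_dup633 did not pass the count filter for edgeR. They were named after their values were seen.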
